A study of Homo sapiens with 6 samples.

Results

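The 61 genes described here encode proteins of the centrosome, of augmin and of the gamma-tubulin ring complex. They were taken by symbol from the 15953 genes listed for all 6 libraries: CEP, HAUS and POC genes whose symbol goes on with a number, the TUBGCP genes, and PCNT, PCM1, NIN, NINL, OFD1, TUBG1, CETN2, CETN3, ODF2, AKAP9 and SDCCAG8. CEP152, CEP63, CEP192, CEP135 and CEP97 were left out by the same rule, and no expression value was part of it. The rule was nevertheless set with earlier results of these data known. Reads came from EJ cells, a long established bladder cancer line, in 3 libraries of cells with stable knockdown of STIL by a lentiviral short hairpin (genotype shSTIL) and 3 libraries of cells with the negative control vector (shNC). The deposited tables head the same columns with si in place of sh, and the groups were taken here from the sample labels. The sequence of the hairpin is not given in the sources used here, which also do not say whether the stable cells were a clone or a pool, or whether replicates were separate cultures. The P-values below therefore measure only the spread between these libraries.

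Microtubules are nucleated by the gamma-tubulin ring complex, a ring of gamma-tubulin molecules held by the TUBGCP proteins. The complex sits in the pericentriolar material around the centrioles and, through augmin, also on the sides of existing spindle microtubules, where augmin starts branches. The mature centriole carries distal and subdistal appendages and can become the base of the primary cilium, while small granules around it, the centriolar satellites, supply proteins to both structures. STIL itself is needed to build new centrioles in S phase.

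The libraries held 16214771 to 16431242 reads in the control group and 16734468 to 16901633 in the STIL-knockdown group. STIL, the targeted gene, had a log2 CPM (log2 of the library-scaled read count, as deposited) of 5.98, 6.10 and 6.01 in control cells and 4.05, 4.06 and 4.01 after knockdown. As a check of the labelled line, KRT8 and KRT18, keratins of simple epithelia, and the mesenchymal filament gene VIM had a mean log2 CPM of 8.21, 9.30 and 10.2. Of the 15 urothelial and epithelial markers listed, 5 had a mean log2 CPM of 1 or more: KRT8, KRT18, KRT7 (6.75), PPARG (4.41) and FOXA1 (3.06). Among the others, KRT5, KRT20, UPK2 and CDH1 were at or near the floor of the tables. Of the 5 mesenchymal markers listed, 4 were at 1 or more, and SNAI2 was at -1.43. Of the 5 listed markers of blood, endothelium and liver, CD68 was the one above a mean of 1.

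Of the 61 genes, 25 were lower and 15 were higher in STIL-knockdown cells at a limma adjusted p under 0.01, and 21 did not pass. Over all 15953 genes, 23.6% were lower and 23.5% were higher at the same threshold, against 41.0% and 24.6% of these genes. The median log2 fold change of the 61 genes was -0.08, beside 0.01 over all genes. The values of both groups did not overlap for 45 of the 61 genes, and for 60.3% of all genes. All but CEP295NL had a mean log2 CPM of 1 or more, which held for 11319 of all genes. In the limma fit restricted to those genes, 26 of 60 members (43.3%) were lower and 16 (26.7%) were higher, beside 33.3% and 32.5% of the genes tested. The members' share of lower calls was then closer to that of all genes, and their share of higher calls was below it. The groups did not overlap for 45 of these 60 members and for 75.7% of the genes at this level, so the lack of overlap was no more frequent among members. Their summed level ranged from 2943 to 3027 CPM in the control libraries and from 2722 to 2797 CPM in the STIL-knockdown libraries. The sum of TUBG1, CEP250 and CEP55, picked out after their values were seen, went from between 659 and 676 CPM to between 403 and 409 CPM. The other 58 genes, with falls and rises among them, summed to between 2279 and 2368 CPM in control libraries. In knockdown libraries they summed to between 2319 and 2387 CPM, ranges that overlap. All these sums were scaled by total reads alone. The edgeR scaling factors left out here were 0.981 to 0.992 in control and 1.012 to 1.019 in knockdown libraries. With them, the knockdown sums would be lower relative to control. The plot of fold changes by role shows all 8 augmin genes below 0, and that satellites, appendages and the centriole wall held falls and rises side by side. The counts by role or list given below rest on few genes each. The shares of all genes set beside them come from the main fit, which includes genes with fewer reads. In the restricted fit 33.3% were lower and 32.5% higher, the nearer comparison for genes at this level. Whether they differ from the shares of all genes was not tested.

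**Figure D1:**
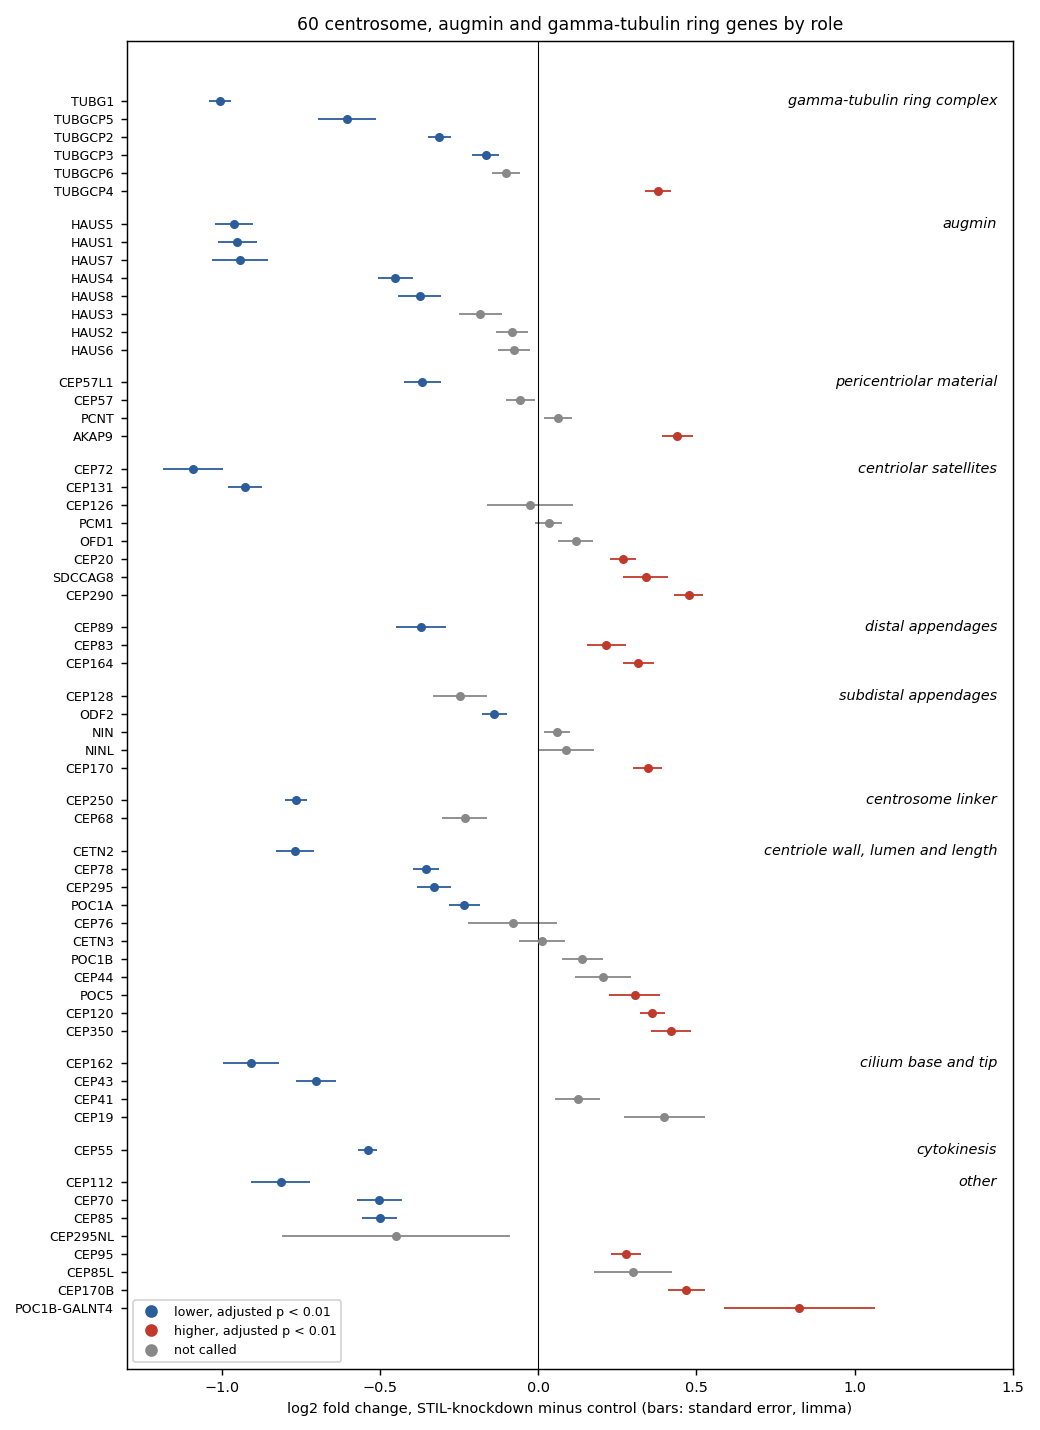
Log2 fold change (STIL-knockdown minus control) of 60 of the 61 genes, grouped by role, with bars of 1 standard error from limma and colour by call. Gamma-tubulin (TUBG1) and CEP72 fell by 1.00 and 1.09, while CEP290 and TUBGCP4 rose by 0.48 and 0.38.

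Other transcripts of dividing cells moved in the same libraries. Of 23 listed S phase genes, 23 were lower, with a median log2 fold change of -1.22. Of 22 listed G2/M genes, 19 were lower and 0 higher, with a median of -0.55. The share of lower genes was 23.6% over all genes and 33.3% in the restricted fit. In bulk RNA, fewer cells in a cycle phase and less RNA per cell cannot be told apart, and the part of the cycle genes in the changes given here was not tested.

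The promoters of the 3 genes with the largest falls, CEP72, TUBG1 and HAUS5, are printed here because these genes kept close shares of their control level (46.9%, 49.8% and 51.4%). Each runs from 250 bases before to 50 bases after a RefSeq start in GRCh38.p14, in the direction of the gene. Capitals mark matches to short motifs searched on both strands, namely CHR (TTTGAA or TTCGAA), E2F (TTTCCCGC, TTTGGCGC or TTTCGCGC) and CCAAT. The X-box, a motif known from genes of cilia, was searched as well. CEP72 lies on the plus strand at chr5:612090-612389, TUBG1 on the plus strand at chr17:42609433-42609732 and HAUS5 on the plus strand at chr19:35612485-35612784.
CEP72: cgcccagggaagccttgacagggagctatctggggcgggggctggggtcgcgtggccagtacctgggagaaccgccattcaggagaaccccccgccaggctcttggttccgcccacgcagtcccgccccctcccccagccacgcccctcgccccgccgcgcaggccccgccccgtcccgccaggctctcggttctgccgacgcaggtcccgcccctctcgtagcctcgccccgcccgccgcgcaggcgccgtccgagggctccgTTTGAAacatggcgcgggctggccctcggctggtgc
TUBG1: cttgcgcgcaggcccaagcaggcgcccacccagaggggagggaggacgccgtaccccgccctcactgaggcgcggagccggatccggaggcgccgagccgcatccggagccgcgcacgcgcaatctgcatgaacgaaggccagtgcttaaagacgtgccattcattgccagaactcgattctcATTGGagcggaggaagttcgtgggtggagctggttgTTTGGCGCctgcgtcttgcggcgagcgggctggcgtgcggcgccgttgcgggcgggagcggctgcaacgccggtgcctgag
HAUS5: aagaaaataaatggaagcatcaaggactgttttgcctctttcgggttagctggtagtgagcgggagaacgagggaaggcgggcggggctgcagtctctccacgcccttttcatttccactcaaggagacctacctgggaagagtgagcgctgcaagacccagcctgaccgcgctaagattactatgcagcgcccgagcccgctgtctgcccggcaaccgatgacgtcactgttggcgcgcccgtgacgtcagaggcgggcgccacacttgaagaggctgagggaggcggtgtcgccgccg
The CEP72 promoter held 1 CHR match, the TUBG1 promoter held 1 E2F match and 1 CCAAT match, and the HAUS5 promoter held none of these letters.

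Of the 61 genes, 53 had a promoter in the RefSeq table. An E2F match stood in a promoter of 5 of the 23 lower genes (CEP112, HAUS7, HAUS8, ODF2 and TUBG1), 0 of the 12 higher genes and 2 of the 18 not called (CEP57 and CEP68). Over all 12621 genes of the tables with a promoter, 5.09% held it, as did 2.74% of the 35116 promoters, and by call it stood in 7.82% of all lower genes, 4.66% of all higher genes and 4.0% of those not called. CCAAT stood in 13, 5 and 5 of the same groups of members, beside 42.7% of all genes (47.9% of the lower, 39.2% of the higher and 42.0% of the others) and 34.6% of all promoters. All lower genes thus also held E2F and CCAAT matches at a larger share than all higher genes. CHR stood in 6, 5 and 4 of them, beside 16.1% of genes (15.3%, 15.6% and 16.7% in the same order) and 16.4% of promoters. The X-box stood in none of the 53, beside 1.24% of genes and 0.834% of promoters. A match is only a description of these letters, and its part in any change was not tested.

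The gamma-tubulin ring complex genes moved in both directions, with 4 of 6 lower and 1 higher. Over all genes the shares were 23.6% and 23.5% (33.3% and 32.5% in the restricted fit). TUBG1, the main gamma-tubulin gene (chromosome 17, 42609676 to 42615234, GRCh38), had a log2 CPM of 7.92, 7.82 and 7.91 in control libraries and 6.88, 6.86 and 6.90 in STIL-knockdown libraries. The knockdown libraries lay close together and far under every control library. TUBG1 fell by 1.00 on the log2 scale (standard error 0.035, limma adjusted p = 6.3e-11), which left 49.8% of the control level. Its close paralog TUBG2 was at a log2 fold change of 0.04 (adjusted p = 0.56). RSEM divides reads that fit either gene between them, and the summed CPM of both, added after the values were seen, was 0.76 lower on the log2 scale.

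The other ring genes encode the gamma-tubulin complex proteins, of which TUBGCP2 and TUBGCP3 form the basic units and TUBGCP4, TUBGCP5 and TUBGCP6 complete the ring. TUBGCP5 had a log2 CPM of 4.56, 4.61 and 4.43 in control libraries and of 4.05, 3.72 and 4.02 in STIL-knockdown libraries. The groups did not overlap, and STIL-knockdown replicate 2 was the lowest library. TUBGCP5 fell by 0.60 (standard error 0.092, adjusted p = 7.9e-05), a call that was lost without control replicate 1 (adjusted p = 0.018), control replicate 2 (0.017) or STIL-knockdown replicate 3 (0.014). TUBGCP2 went from 6.93, 6.86 and 6.93 to 6.62, 6.60 and 6.55, without overlap. It fell by 0.31 (standard error 0.036, adjusted p = 5.9e-06).

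TUBGCP3 showed the smallest called change of the ring, from 5.87, 5.90 and 5.88 in control libraries to 5.74, 5.65 and 5.76 in knockdown libraries. The groups were separate but close together. It fell by 0.17 (standard error 0.043, adjusted p = 0.0048), and the call was lost when any of the 6 libraries was left out, with adjusted p between 0.012 and 0.031. TUBGCP6 had values of 6.42, 6.35 and 6.25 in control libraries and 6.25, 6.24 and 6.22 in knockdown libraries. The groups touched, and its log2 fold change of -0.10 did not pass (adjusted p = 0.066).

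TUBGCP4 was the one ring gene that was higher in STIL-knockdown cells. Its log2 CPM was 5.83, 5.84 and 5.95 in control libraries and 6.27, 6.23 and 6.26 in STIL-knockdown libraries. Every knockdown library lay above every control library, with a rise of 0.38 (standard error 0.042, adjusted p = 4.0e-06) that passed in each leave-one-out fit. TUBGCP4 (chromosome 15, 43369221 to 43409771) shares 45.0% of its exonic bases in GENCODE 29 with TP53BP1 on the opposite strand, a gene whose own log2 fold change was -0.12. Whether strand was used in counting is not given in the sources used here, so reads of these overlapping exons may be assigned to either gene. Within a library, the log2 ratio of TUBG1 to TUBGCP4 went from 2.01 ± 0.068 (SD, n = 3) in control cells to 0.62 ± 0.015 in STIL-knockdown cells, and that of TUBGCP5 to TUBGCP4 went from -1.34 ± 0.16 to -2.32 ± 0.17. These pairs were chosen after the values were seen and are given with no test.

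Per kilobase of coding sequence, gamma-tubulin was far above its partners. The level of TUBG1 was 174 ± 6.37 CPM per kb (SD, n = 3) in control cells and 86.8 ± 1.2 in STIL-knockdown cells. Among the complex proteins in control cells, TUBGCP2 was at 42.9 ± 1.21, TUBGCP4 at 29.3 ± 1.32, TUBGCP3 at 21.7 ± 0.261, TUBGCP6 at 14.8 ± 0.869 and TUBGCP5 at 7.5 ± 0.50 CPM per kb. In STIL-knockdown cells TUBGCP4, at 38.0 ± 0.507, stood above TUBGCP2, at 34.5 ± 0.813, so the order of these genes was exchanged. The TUBGCP4 levels may hold reads of the exons shared with TP53BP1, so this order is uncertain. TUBGCP5 remained the lowest at 4.94 ± 0.615. The bars of levels per coding length show this exchange beside the augmin genes.

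**Figure D2:**
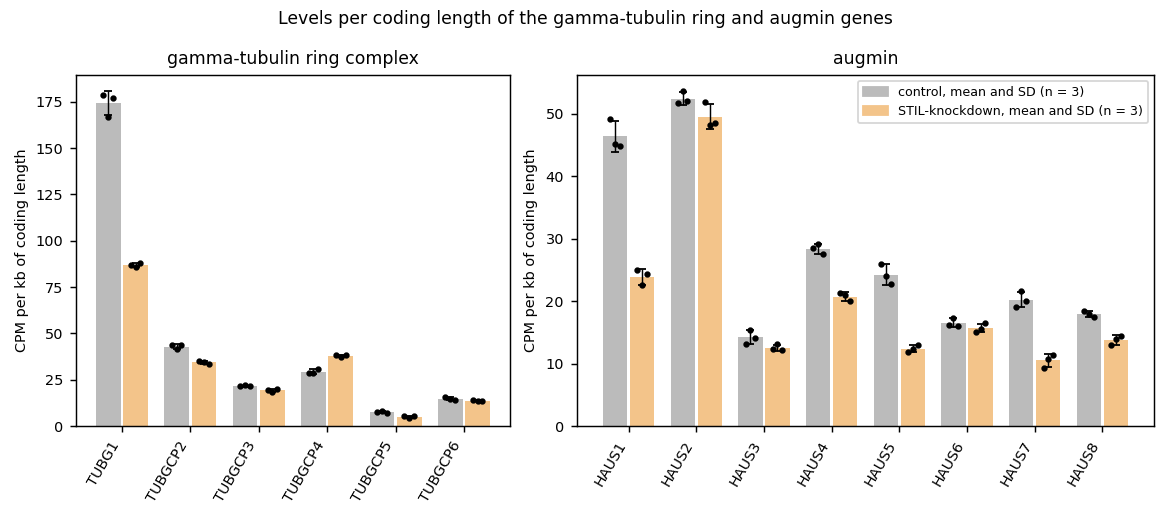
CPM per kilobase of coding length (y axes start at 0 and differ in scale) of the 6 gamma-tubulin ring genes and the 8 augmin genes, with bars for the mean, error bars for the SD and points for the 3 libraries of each group. TUBG1 dropped from 174 to 86.8 CPM per kb, whereas HAUS2 was at 52.4 and 49.5.

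Of 6 further genes whose products join the ring or recruit it (TUBG2, MZT1, MZT2A, MZT2B, NEDD1 and CDK5RAP2), 4 were lower and 0 higher. Over all genes, 23.6% were lower and 23.5% higher (33.3% and 32.5% in the restricted fit). The median log2 fold change of these 6 genes was -0.22. MZT1, a small ring subunit, fell by 0.47, MZT2A and MZT2B, near-identical copies whose reads cannot be divided with certainty, fell by 0.36 and 0.25, and NEDD1, which brings the ring to the centrosome and to augmin, fell by 0.19. CDK5RAP2, an activator of the ring in the pericentriolar material, was at -0.09 (adjusted p = 0.091).

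All 8 augmin subunits had a negative log2 fold change, with a median of -0.41, and 5 of 8 passed. Over all genes 23.6% were lower (33.3% in the restricted fit). Augmin is an octamer in which HAUS2, HAUS6, HAUS7 and HAUS8 form the part that binds microtubules and HAUS1, HAUS3, HAUS4 and HAUS5 form the other part. The 5 that passed lay in both parts. HAUS5 (chromosome 19, 35612744 to 35625349) had a log2 CPM of 5.63, 5.52 and 5.44 in control libraries and of 4.51, 4.56 and 4.63 in STIL-knockdown libraries. The groups were far apart, and HAUS5 fell by 0.96 (standard error 0.060, adjusted p = 1.5e-08). HAUS1 went from 5.36, 5.24 and 5.23 to 4.39, 4.24 and 4.35. Again no values overlapped, and HAUS1 fell by 0.95 (standard error 0.062, adjusted p = 2.4e-08).

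HAUS7 had the largest fall in the microtubule-binding part. Its log2 CPM was 4.41, 4.58 and 4.48 in control libraries and 3.38, 3.58 and 3.68 in knockdown libraries, a fall of 0.94 (standard error 0.088, adjusted p = 8.0e-07) without overlap. HAUS7 shares 48.9% of its exonic bases with TREX2 on the same strand, which was at a log2 fold change of -0.04, so the division of reads between them is uncertain. HAUS4 went from 4.96, 4.99 and 4.91 to 4.54, 4.52 and 4.45, with a fall of 0.45 (standard error 0.056, adjusted p = 1.2e-05). HAUS8, the subunit that touches the microtubule directly, went from 4.51, 4.47 and 4.43 to 4.01, 4.11 and 4.16, with a fall of 0.38 (standard error 0.068, adjusted p = 3.3e-04). Neither gene overlapped between the groups.

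The remaining augmin genes did not pass. HAUS3 had values of 4.58, 4.81 and 4.69 in control libraries and 4.49, 4.58 and 4.47 in knockdown libraries, with a log2 fold change of -0.18 (adjusted p = 0.037). HAUS2 was at 5.19, 5.24 and 5.20 in control libraries and at 5.20, 5.09 and 5.10 in knockdown libraries (log2 fold change -0.08, adjusted p = 0.19). HAUS6, the subunit that binds NEDD1, was at 5.54, 5.64 and 5.52 and at 5.44, 5.47 and 5.56 (log2 fold change -0.08, adjusted p = 0.23). The HAUS2 and HAUS6 groups overlapped, while those of HAUS3 were separate by a narrow margin. The log2 ratio of HAUS5 to HAUS2 within a library, a pair chosen after the values were seen, went from 0.32 ± 0.11 (SD, n = 3) to -0.56 ± 0.11.

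Levels of augmin subunits per coding kilobase were unequal in control cells. HAUS2 was at 52.4 ± 1.04 and HAUS1 at 46.4 ± 2.45 CPM per kb, against 28.4 ± 0.771 for HAUS4, 24.3 ± 1.63 for HAUS5 and 20.3 ± 1.25 for HAUS7. HAUS8, HAUS6 and HAUS3 were lowest at 17.9 ± 0.490, 16.5 ± 0.728 and 14.3 ± 1.14. In STIL-knockdown cells HAUS1 was at 23.9 ± 1.26, HAUS5 at 12.4 ± 0.509 and HAUS7 at 10.5 ± 1.09, and HAUS2 was still at 49.5 ± 2.02 CPM per kb. The order depends on the length used: per kilobase of transcript, HAUS2 was at 9.35 and HAUS1 at 34.4 CPM in control cells.

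In the pericentriolar material, 1 of 4 genes was lower and 1 higher (all genes: 23.6% and 23.5%, restricted fit: 33.3% and 32.5%). PCNT, its main scaffold, was at a log2 fold change of 0.06 (adjusted p = 0.26) and CEP57, which holds pericentrin near the centriole, was at -0.06 (adjusted p = 0.32). The paralog CEP57L1 fell by 0.37 and AKAP9, a large anchor of the ring at the centrosome and the Golgi, rose by 0.44 (adjusted p = 1.1e-04 and 3.8e-06). The CEP57L1 call was lost without control replicate 2, control replicate 3 or STIL-knockdown replicate 3.

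Of the 8 centriolar satellite genes, 2 were lower and 3 higher (25% and 37.5%). Over all genes the shares were 23.6% and 23.5% (33.3% and 32.5% in the restricted fit). CEP72, a satellite protein that binds PCM1 and CEP290, had the largest fall of all 61 genes. Its log2 CPM was 3.83, 3.88 and 3.96 in control libraries and 2.87, 2.70 and 2.82 in STIL-knockdown libraries, a fall of 1.09 (standard error 0.094, adjusted p = 3.6e-07). CEP131, needed for intact satellites, went from 5.80, 5.71 and 5.62 to 4.77, 4.81 and 4.78 and fell by 0.93 (standard error 0.054, adjusted p = 7.9e-09). Both genes were separate between the groups by far more than the spread within them.

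Their shared scaffold did not pass the test. PCM1, which holds satellites together, was at a log2 fold change of 0.03 (adjusted p = 0.58), OFD1 at 0.12 (adjusted p = 0.083) and CEP126 at -0.03 (adjusted p = 0.88). CEP290, a gatekeeper of the cilium base, rose by 0.48, SDCCAG8, a partner of PCM1, rose by 0.34 and CEP20 rose by 0.27 (adjusted p = 8.8e-07, 0.0011 and 9.5e-05). CEP20 is also listed under its older symbol FOPNL, in a row of its own that rose by 0.70, and the summed CPM of both rows was 0.30 higher on the log2 scale, a sum added after the values were seen. SDCCAG8 starts head to head with CEP170 on chromosome 1, with starts at 243256041 and 243255281, 760 bases apart, and CEP170 rose by 0.35.

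At the distal appendages, which dock the mother centriole to the membrane, CEP164, which recruits TTBK2, rose by 0.32 and CEP83, the root of the appendage, by 0.21 while CEP89 fell by 0.37 (adjusted p = 7.3e-05, 0.0092 and 0.0013). The CEP89 call was lost when any of the 6 libraries was left out and the CEP83 call when any but control replicate 3 was. At the subdistal appendages, which anchor microtubules, CEP170 rose by 0.35 (adjusted p = 2.4e-05) and ODF2, needed to form the appendages, fell by 0.14 (adjusted p = 0.0082). The ODF2 call was lost whichever of the 6 libraries was left out, and that of CEP170 without control replicate 3, STIL-knockdown replicate 1 or STIL-knockdown replicate 3. The microtubule anchor NIN and its paralog NINL were at 0.06 and 0.09 and CEP128 at -0.25 (adjusted p = 0.25, 0.43 and 0.024).

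The centrosome linker ties the centrioles of a cell together between divisions. CEP250, which encodes its fibre protein C-NAP1, had a log2 CPM of 7.65, 7.60 and 7.68 in control libraries and 6.91, 6.84 and 6.88 in STIL-knockdown libraries. The libraries of each group lay close together, and CEP250 fell by 0.77 (standard error 0.035, adjusted p = 8.0e-10). CEP68, a second linker protein, was at -0.23 (adjusted p = 0.013). Of the linker proteins outside the 61 genes, LRRC45 fell by 1.44 (adjusted p = 5.2e-11) and CNTLN by 0.32 (adjusted p = 0.0023), and CROCC, which encodes the fibre protein rootletin, was at -0.0040 (adjusted p = 0.97). Over the 9 listed partners of linker and appendages, 2 were lower and 2 higher (all genes: 23.6% and 23.5%, restricted fit: 33.3% and 32.5%). The larger rise was 0.73 for TTBK2, the kinase that starts ciliogenesis at the distal appendages (adjusted p = 1.0e-08).

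Among genes of the centriole wall, its lumen and its length, 4 of 11 were lower and 3 were higher. Over all genes these shares were 23.6% and 23.5% (33.3% and 32.5% in the restricted fit). CETN2, a centrin of the distal lumen, had a log2 CPM of 5.83, 5.86 and 5.80 in control libraries and of 4.99, 5.21 and 4.99 in knockdown libraries. Every knockdown library was well under the controls, and CETN2 fell by 0.77 (standard error 0.060, adjusted p = 1.4e-07). Its paralog CETN3 was at 0.01 (adjusted p = 0.92), and the log2 ratio of CETN2 to CETN3, chosen after the values were seen, went from 1.27 ± 0.13 (SD, n = 3) to 0.49 ± 0.10.

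Smaller falls were those of CEP78 (0.36), CEP295, which stabilises new centrioles (0.33), and POC1A, a wall protein (0.23). CEP350, which recruits CEP43, CEP120, needed for centrioles to lengthen, and POC5, a lumen protein that binds centrins, rose by 0.42, 0.36 and 0.30. The POC5 call was lost whichever of the 6 libraries was left out, the CEP350 call without 4 of them (control replicates 1 and 3, STIL-knockdown replicates 1 and 3) and the CEP295 call without STIL-knockdown replicate 2 or 3. CEP76, POC1B and CEP44 were at -0.08, 0.14 and 0.20 and did not pass. The FOPNL row of CEP20 is left out of the 14 listed partners of satellites and of centriole length. Of these 14, 8 were lower and 1 was higher (all genes: 23.6% and 23.5%, restricted fit: 33.3% and 32.5%). The higher gene was IQCB1, a partner of CEP290, which rose by 0.39 (adjusted p = 7.7e-05). LRRCC1, a protein of the distal lumen, fell by 1.05, CCP110, which caps the distal end of the centriole, by 0.71, MPHOSPH9, which recruits CCP110, by 0.67, SSX2IP by 0.67, TBC1D31 by 0.61 and RTTN by 0.53.

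At the base and tip of the cilium, CEP162 and CEP43 fell. CEP162, which helps build the transition zone of the cilium, went from 4.08, 4.28 and 4.17 to 3.38, 3.22 and 3.21 and fell by 0.91 (standard error 0.088, adjusted p = 1.1e-06). CEP43, a protein of the distal centriole known by the older name FOP, went from 4.99, 5.11 and 5.10 to 4.47, 4.31 and 4.31 and fell by 0.70 (standard error 0.064, adjusted p = 6.5e-07). Neither CEP162 nor CEP43 overlapped between the groups. CEP19, which helps bring transport proteins to the cilium base, was at 0.40 (adjusted p = 0.017) and CEP41, needed for tubulin glutamylation in cilia, at 0.12 (adjusted p = 0.16).

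CEP55 leaves the centrosome in mitosis and organises abscission at the midbody. Its log2 CPM was 7.87, 7.93 and 7.93 in control libraries and 7.38, 7.37 and 7.36 in STIL-knockdown libraries, a fall of 0.54 (standard error 0.031, adjusted p = 6.9e-09). It was the most abundant of the 61 genes by mean log2 CPM not scaled for length, at 7.64, and its groups did not overlap.

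The remaining 8 genes had 3 lower and 3 higher members (all genes: 23.6% and 23.5%, restricted fit: 33.3% and 32.5%). CEP112 went from 4.01, 3.92 and 3.91 in control libraries to 3.13, 3.25 and 3.01 in knockdown libraries and fell by 0.81 (standard error 0.092, adjusted p = 4.8e-06). CEP70, which binds gamma-tubulin, went from 4.94, 5.0 and 5.11 to 4.61, 4.56 and 4.37 (fall of 0.50, adjusted p = 4.0e-05). CEP85, a negative regulator of the kinase NEK2, went from 5.43, 5.51 and 5.50 to 5.0, 4.88 and 5.05 (fall of 0.50, adjusted p = 3.3e-06). None of these 3 overlapped between the groups. CEP170B and CEP95 rose by 0.47 and 0.28, the first call being lost without control replicate 3 or any of the 3 STIL-knockdown replicates, and CEP85L was at 0.30 (adjusted p = 0.053).

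POC1B-GALNT4, a readthrough transcript, had the largest fitted rise but few reads. Its log2 CPM was 1.07, 1.92 and 0.90 in control libraries and 2.04, 2.34 and 1.99 in knockdown libraries, from 27.9 to 85.1 estimated reads a library. The rise of 0.83 (standard error 0.24, adjusted p = 0.0093) was called in 1 of 6 leave-one-out fits, the one without control replicate 2, and its adjusted p reached 0.16 in the others. It shares 91.5% of its exonic bases with GALNT4 (log2 fold change 0.06), so its reads are uncertain. CEP295NL had 0 to 3 reads in each library, so its fold change is plotted with the others but not described. The plot of library values shows how far apart the groups of the 25 genes given one by one lay.

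**Figure D3:**
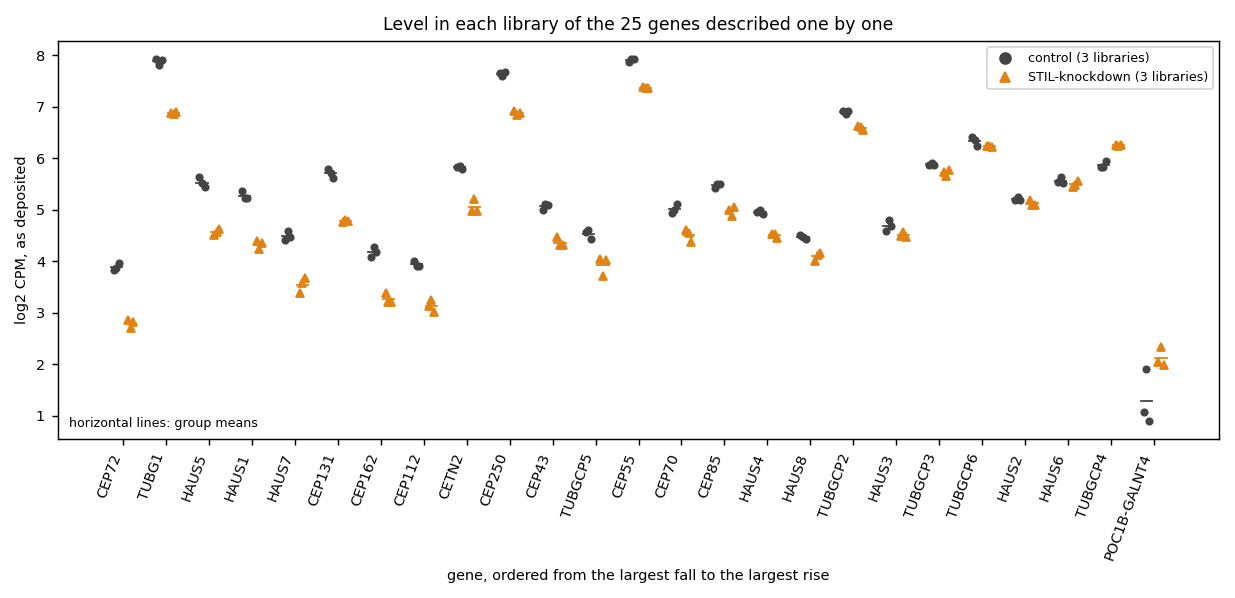
Log2 CPM as deposited (y axis) in each of the 3 control libraries (circles) and 3 STIL-knockdown libraries (triangles) for 25 genes, ordered from the largest fall to the largest rise, with lines at the group means. The groups of TUBG1 and CEP250 lie about 1.00 and 0.77 apart with little spread, while control replicate 2 of POC1B-GALNT4 reaches 1.92.

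Coding length was set beside the fold change because the members range from small centrins to AKAP9, at 11.7 kb. Spearman's rho was 0.25 over 60 members with a mean log2 CPM of 1 or more and 0.07 over the 11279 genes filtered likewise, as a description across genes that share libraries and are not replicates. Of the 17 members of middle coding length (1.065 to 1.92 kb), 10 were lower and 2 higher, beside 30.8% and 30.1% of all genes there. Of the 37 members above that length, 13 were lower and 12 higher, beside 29.9% and 34.4%. The 6 shortest members had 2 lower and 1 higher, beside 33.6% and 27.0% of all genes there. Of the longest genes, AKAP9, CEP350 and CEP290 rose, CEP295 and CEP250 (7.33 kb) fell, and PCNT did not pass.

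**Figure D4:**
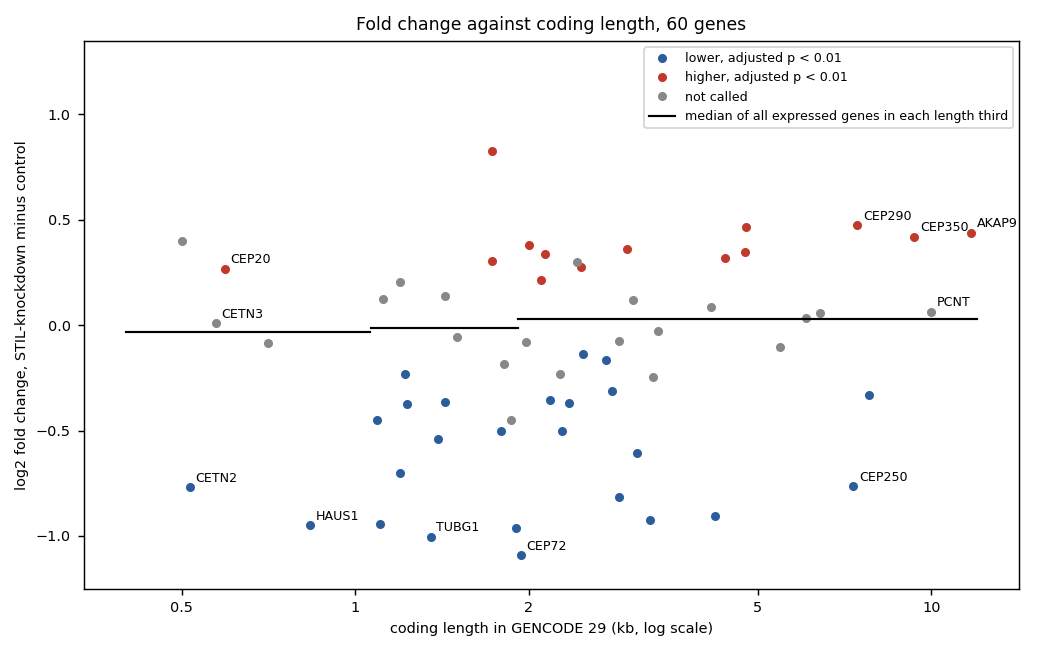
Log2 fold change (y axis) against the longest coding length in GENCODE 29 (x axis, kilobases, log scale) for 60 of the 61 genes, coloured by call, with lines at the median of all expressed genes in each of 3 length groups of like size. Those medians are -0.03, -0.01 and 0.03, and members lie on both sides of them in each length group. The plotted genes include CEP295NL, which has almost no reads and was not part of the rank correlation.

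The study also lists siRNAs against STIL, and it is not given here whether the hairpin shares a sequence with one. The 3′ UTR was taken from the transcript with the longest coding sequence in GENCODE 29. It held the match to the seed of siSTIL#1 (TACATATA) in 6 members, of siSTIL#2 (TGGATTAA) in 3 and of siSTIL#3 (TTCCACAA) in 2. Those of siSTIL#1 were CEP43 (fall of 0.70), HAUS5 (fall of 0.96), CEP57, CEP85L, CEP126 and HAUS6 (not called), and those of siSTIL#3 were CEP170 (rise of 0.35) and CEP41 (not called). The sites of siSTIL#2 are shown with 8 bases on each side because its members moved in different ways: CEP43 fell by 0.70 (chr6:167044193-167044216, plus strand), HAUS3 was at -0.18 without passing (chr4:2229424-2229447, minus strand) and CEP350 rose by 0.42 (chr1:180111347-180111370, plus strand).
CEP43: aacctgaaTGGATTAAgacaaacc
HAUS3: atgataccTGGATTAAgcctctag
CEP350: ctatccacTGGATTAAtgggttat
Over 405 genes with the siSTIL#2 word, the median log2 fold change was -0.11, beside -0.0041 over the 10874 genes without it. Over 701 genes with the siSTIL#1 word it was 0.10, beside -0.01 without it, and over 408 genes with the siSTIL#3 word it was 0.06, beside -0.01, so the words differed in sign. The part of these sites in the change of any member was not tested.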

How the data were processed

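RNA of 3 stable STIL-knockdown and 3 control EJ samples was sequenced on the BGISEQ-500, filtered with SOAPnuke, mapped with Bowtie2 to a transcriptome (hg38 per the labels) and quantified with RSEM by the authors, whose versions are not given in the sources used here. The deposited log2 CPM values of 15953 genes, scaled by the authors with edgeR, cover all 6 libraries. The deposited estimated counts of 15957 genes (RSEM) cover control replicate 1 and the STIL-knockdown libraries and were used to check reads recovered from the spacing of the log2 CPM (largest difference 0.0252 reads, prior count 2). Of the recovered reads per gene, 87.5% to 87.8% were whole within 0.01.

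The groups were compared with limma 3.58.1 (lmFit, eBayes with a mean-variance trend, R 4.3.3) on the log2 CPM of all genes, with Benjamini-Hochberg adjustment and a threshold of 0.01. For a single gene, an exact permutation test of 3 against 3 libraries cannot go below p = 0.1. Alternatives were other scalings, filters, prior counts and thresholds, edgeR 4.0.16 and DESeq2 1.42.0 on recovered reads rounded to whole numbers, a replicate block, and leaving out each library. The fits were tested on simulated data with far fewer changed genes than were called here and the same scatter set for all genes. There the limma fit of all genes missed changed genes and made false calls near the floor. In the same simulation, edgeR and the fit restricted to a mean log2 CPM of 1 or more did not make these false calls. With these settings the simulation cannot give the rate of such errors in these data. Coding length is the longest in GENCODE 29, used because no protein table was at hand as the design had assumed. Genes with values in each library are the HAUS and TUBGCP genes, TUBG1, and other members called with an absolute log2 fold change of 0.5 or more, a mean log2 CPM of 1 or more and groups that did not overlap. 1 gene that enters the counts is not reported here. Members, lists and rules were chosen with earlier results of these data known. Fold changes on the deposited scale can understate those of genes with few reads, though POC1B-GALNT4 was at 0.83 there and at 0.77 in edgeR.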

Additional observations from a re-analysis of the deposited data

How the results depend on the processing

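The count of lower genes stayed within 19 to 28 under every alternative but one, and that of higher genes within 9 to 16. The exception was limma treat against a 1.2-fold change, which called 14 lower and 3 higher. Leaving out 1 library gave 19 to 22 lower and 9 to 13 higher genes, the count of 9 being reached without STIL-knockdown replicate 1 and without STIL-knockdown replicate 3. In all, 12 of the 40 called genes lost the call without some library, 4 of them (CEP89, ODF2, POC5 and TUBGCP3) whichever of the 6 was left out. With the replicate block, 23 were lower and 14 higher, the calls of CEP83, ODF2 and TUBGCP3 being lost and no other. Same-numbered libraries did not deviate together (correlations of -0.12, -0.06 and -0.11). Of 6 libraries, 0 correlated best with the library of their own number in the other group. With so few libraries, this cannot tell whether the numbers pair the samples. edgeR, and limma restricted to a mean log2 CPM of 1 or more, each called 26 lower and 16 higher, the 40 genes included. No called gene changed sign in any setting, and no setting moved the median of all genes past 0.05. Of 450 alternative values of the 25 genes given one by one, 421 kept their direction and side of the threshold, 28 lost the call, 1 (HAUS3, at an adjusted p under 0.05) gained one and 0 reversed. POC1B-GALNT4 was not called with quantile normalization, a prior count of 5, no trend or treat, nor TUBGCP3 with median centring, no trend, treat or DESeq2.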
